A study of Arabidopsis thaliana with 12 samples.

Results

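Shoot apices of an Arabidopsis thaliana line carrying rAP2-VENUS were compared with wild-type apices (WT, accession Col-0) across the transcriptome. The comparison takes every library of both genotypes, 4 of rAP2-VENUS line #A6 and 4 of WT, which is 8 of the 12 libraries of the series, and pairs libraries with the same replicate number. The remaining 4 libraries, of the mutant ap2-12, are used here for levels set beside the others, with no test against them. All plants were raised in long days (16 h light, 8 h dark) and were harvested once the main stem was 1 cm tall. Per the labels, each library was made from a separate biological replicate, and the protocol gives 15 as the number of apices. RNA was enriched for polyadenylated transcripts. Nothing in the labels explains the r of rAP2, names the promoter behind the fusion to the fluorescent protein VENUS, or states whether the endogenous AP2 gene is intact. A single line was sequenced, so what the transgene does cannot be told apart from its insertion site or from variation private to that line. The labels also give no date or hour of harvest.

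APETALA2 (AP2) is a transcription factor of the flower and of the inflorescence meristem. It specifies sepals and petals, limits the expression of the carpel identity gene AGAMOUS, and acts on flowering genes. Its relatives TOE1, TOE2, TOE3, SMZ and SNZ are repressors of flowering, and all of these transcripts carry a site for the microRNA miR172 in their coding sequence. Shoot apices of flowering plants hold stem cell, boundary and floral primordia tissues, and samples of them can include young flowers and leaf bases.

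The mature miR172a and the sites in the 4 measured members of the family are shown because AP2 names the construct and because TOE1 and TOE3 are among the genes that changed. Sequences are RefSeq's, from assembly TAIR10.1. Capitals mark the seed of the microRNA (bases 2 to 8) and, in the genes, the bases that face it. The microRNA is read from chr2:11942918-11942938 on the minus strand.
miR172a: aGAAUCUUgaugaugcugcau
AP2: ctgcagcatcatcAGGATTCt
TOE1: cagcagcatcatcAGGATTCt
TOE2: atgcagcatcatcAGGATTCt
TOE3: tggcagcatcatcAGGATTCt
The AP2 site lies at chr4:17403019-17403039 and the TOE2 site at chr5:24210889-24210909, both on the plus strand. The TOE1 site lies at chr2:12226233-12226253 and the TOE3 site at chr5:26802175-26802195, both on the minus strand. All 4 sites are exonic and share the same 7 bases facing the seed. Over 21 bases the perfect complement of miR172a is missed at 2 positions in AP2, 1 in TOE2 and 3 each in TOE1 and TOE3.

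Library totals ran from 9680133 counts in WT replicate 1 to 15152704 in WT replicate 2. Marker genes of apex and root were read. The shoot meristem genes STM and KNAT1 were at 46.4 CPM (reads per 1e+06 counts of the scaled library) or more in each of the 8 libraries. The root hair gene COBL9 was at 0 in all of them. Not all markers read this way. In WT the meristem genes CLV3, TFL1 and WUS were at 0.0731 to 0.518, 3.14 to 5.8 and 5.19 to 8.04 CPM. In rAP2-VENUS CLV3 was at 0.075 to 0.282 CPM. SCR, of the root markers, was at 45.7 to 73.0 CPM in WT and 47.8 to 60.7 CPM in rAP2-VENUS. STM spanned 55.9 to 81.7 CPM in WT and 55.2 to 80.5 CPM in rAP2-VENUS. The third pair of libraries stood apart. Across genes, the log2 differences of pairs 1, 2 and 4 correlated with each other at 0.51 to 0.57, and those of pair 3 with the others at 0.10 to 0.20. This is a description over genes, and pairs share no library. With all 4 pairs, 308 genes were called, and with replicate 3 left out 1800 were (9.8% of genes tested). Among genes tested in both fits, 1482 were called only when it was left out. Of these, 36.7% had the same sign in pair 3. Their median difference in the called direction was 0.40, 0.46 and 0.33 in pairs 1, 2 and 4 and -0.09 in pair 3 (log2 scale). Being called only without pair 3 selects genes in which pair 3 is weak or opposite, so these values describe that selection. Gene groups are therefore given with and without that pair. With replicate 3 left out, 5.47% of all tested genes were called higher and 4.33% lower, and the counts of that setting stand against these shares.

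Genome-wide, the line differed from WT in a small share of genes, and the called genes split about evenly between higher and lower. In a fit blocked by replicate number, edgeR's quasi-likelihood test called 308 of 18359 tested genes at a Benjamini-Hochberg adjusted p under 0.05 (1.68%). Of these, 147 were higher in rAP2-VENUS (0.801% of genes tested) and 161 were lower (0.877%). Counts of list members called with all pairs stand against these shares. The median log2 fold change of all tested genes was 0. Of the called genes, 147 changed at least 2-fold, 73 upward and 74 downward, and 72 changed less than 1.5-fold. At 4-fold or more, 15 were higher and 33 lower, and 41 of these 48 had a mean below 5 CPM. The WT and rAP2-VENUS libraries did not overlap for 228 of the called genes, against 4.9% of all genes tested. All 308 called genes moved the same way in each of the 4 pairs, as 19.9% of all tested genes did. Without the replicate block 84 genes were called, and 78, 74 and 63 were called when replicate 1, 2 or 4 was left out.

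**Figure D1:**
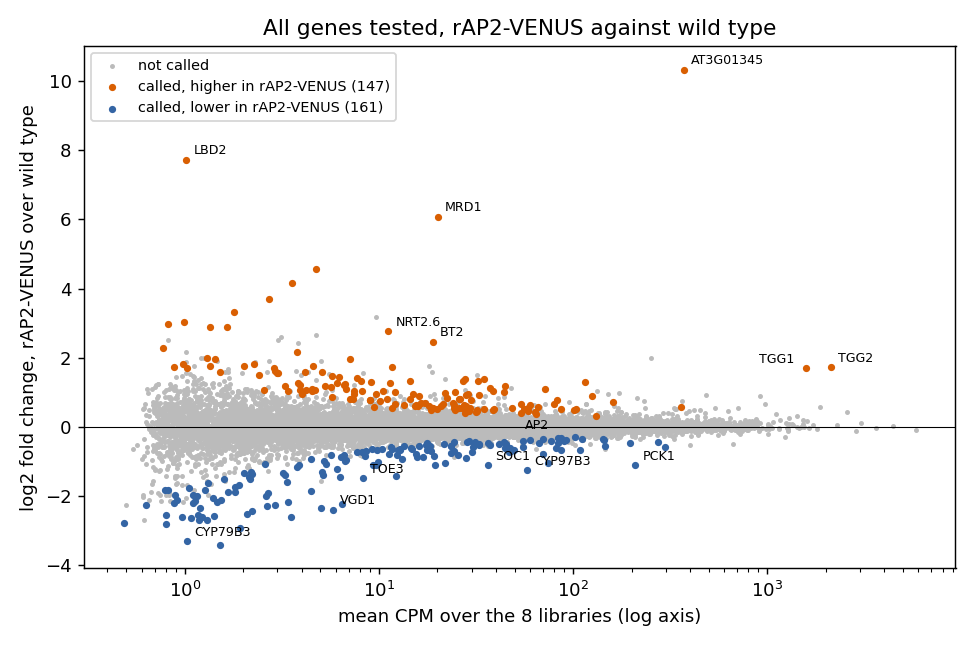
Each point is a gene, with its mean CPM over the 8 libraries on the x axis (log scale) and its log2 fold change of rAP2-VENUS over wild type on the y axis, coloured where called by edgeR's quasi-likelihood test at an adjusted p under 0.05. The 147 higher and 161 lower genes lie at all levels, most of the largest changes are at low CPM, and AT3G01345 stands far above the rest at 10.33.

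The called genes lay on all 5 chromosomes in like shares, from 1.57% of tested genes on chromosome 1 to 1.86% on chromosome 3. Of the 18287 pairs of tested genes next to each other in the annotation, both members were called in 18 pairs, and in 17 of these both moved the same way. They hold 32 genes, 10.4% of those called. Several are tandem relatives, namely TGG1 and TGG2, VGD1 with VGDH1 and AT2G47050, and sks11 with sks13. SOC1 and its neighbour AGL6 were both lower. All 308 called genes are annotated as protein coding. The genes nearest the threshold were EXLA2 (adjusted p = 0.0491) and ENODL1 (0.0498) inside it, and LCR68 and PIP2E (both 0.0502) outside it, by edgeR's quasi-likelihood test.

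Transcript from the AP2 gene was not higher in the line. AP2 was at 92.4, 50.0, 42.4 and 44.2 CPM in WT replicates 1 to 4 and at 57.9, 46.2, 41.1 and 41.9 CPM in rAP2-VENUS. The ranges overlapped, with WT replicate 1 the highest library. Reads of a transgene's AP2 part and of the endogenous gene fall into the same row where their sequence is shared, so the table does not separate them. The log2 fold change was -0.23 (SE 0.11, lower in 4 of 4 pairs) with an adjusted p of 0.401 by edgeR's quasi-likelihood test. In the 4 ap2-12 libraries the same gene stood at 15.7 to 20.7 CPM.

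Among AP2's relatives, TOE3 and TOE1 fell and TOE2 was not called. TOE3, at 20.3, 11.5, 8.20 and 8.29 CPM in WT, was at 7.21, 3.90, 4.07 and 2.26 CPM in rAP2-VENUS. Every rAP2-VENUS library was below every WT library, and replicate 1 was the highest of both groups. The change was -1.48 on the log2 scale (SE 0.16, adjusted p = 0.00272, edgeR quasi-likelihood test). TOE3 overlaps AT5G67170 on the opposite strand, and whether reads were counted by strand is not stated. TOE1 went from 12.4, 7.77, 7.03 and 6.66 CPM to 4.13, 4.20, 3.97 and 2.26 CPM, a change of -1.21 in log2 (SE 0.19, adjusted p = 0.0153 by edgeR's quasi-likelihood test), again with no overlap. In ap2-12 TOE3 was at 22.2 ± 4.52 and TOE1 at 19.7 ± 3.60 CPM (SD, n = 4), so that both stood highest in the mutant and lowest in the rAP2-VENUS line. TOE2 was at 28.6 to 33.4 CPM in WT and 30.8 to 37.2 CPM in rAP2-VENUS (adjusted p = 0.546, edgeR quasi-likelihood test). Of the 6 genes of this family, 4 were tested, 2 were called lower and none higher, with and without replicate 3. Over all tested genes, 0.877% were called lower with all pairs and 4.33% without replicate 3. SMZ and SNZ did not pass the filter on low counts. Neither call of TOE1 and TOE3 held without the replicate block, and that of TOE1 was also lost without replicate 1, 2 or 4.

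Flowering MADS-box genes that passed the test were all lower in the line. They belong to a list of flowering MADS-box genes and integrators, which also holds genes of other families, FD and TFL1 among them. Of its 11 tested members, 4 fell (SOC1, FUL, AGL42 and SVP) and none rose, where 0.877% of all genes were called lower. The median log2 fold change of the list was -0.68, against 0 for all genes. Leaving out replicate 3 gave 5 lower, adding the shoot identity gene TFL1, and a median of -0.56. Without the replicate block 2 of the 4 were called, SOC1 and FUL. AGL42 lost its call without replicate 4, and SVP without replicate 1, 2 or 4.

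SOC1, which integrates flowering signals in the meristem, was at 60.2, 46.6, 42.8 and 49.7 CPM in WT. It was at 23.3, 20.4, 24.5 and 24.5 CPM in rAP2-VENUS. Every WT library was well above every rAP2-VENUS library, and the spread within the line was small. The log2 fold change was -1.1 (SE 0.10, 2.14-fold lower, adjusted p = 0.00134 by edgeR's quasi-likelihood test). SOC1 was at 121 ± 8.38 CPM in ap2-12. FUL, a regulator of inflorescence meristem and fruit, was at 50.3 to 63.1 CPM in WT and 30.4 to 41.6 CPM in rAP2-VENUS, a change of -0.73 in log2 (SE 0.08, adjusted p = 0.00304, edgeR quasi-likelihood test). AGL42, a close relative of SOC1, fell by 0.86 in log2 (SE 0.11, adjusted p = 0.00598, edgeR quasi-likelihood test), from 21.7 ± 2.26 to 12.2 ± 2.84 CPM (SD, n = 4). The floral repressor SVP fell by 0.73 (SE 0.14, adjusted p = 0.0382, edgeR quasi-likelihood test), from 10.2 ± 0.724 to 6.18 ± 1.12 CPM. SVP is named after its values were seen. None of these 3 genes overlapped between WT and rAP2-VENUS, and FUL at 89.9, AGL42 at 38.0 and SVP at 18.9 CPM had higher means in ap2-12 than in either.

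The 250 bases before the annotated start of SOC1 (chr2:18811126-18811375, minus strand, RefSeq TAIR10.1) are shown because AP2 has been reported to bind TTTGTT. Capitals mark TTTGTT on either strand, which the window holds at 2 places that do not overlap.
SOC1 upstream: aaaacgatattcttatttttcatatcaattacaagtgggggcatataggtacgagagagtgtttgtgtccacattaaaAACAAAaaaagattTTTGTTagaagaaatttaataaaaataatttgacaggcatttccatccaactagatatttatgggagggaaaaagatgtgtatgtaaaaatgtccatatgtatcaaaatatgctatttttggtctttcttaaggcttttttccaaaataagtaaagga
These letters are common. Of the 18291 tested genes with such a window, 55.0% held TTTGTT on at least 1 strand, against 55.8% of the called higher genes and 64.0% of the called lower genes. The CArG box, the motif of MADS-box factors, was present in 2.73% of all windows, 0.68% of those of higher genes and 2.48% of those of lower genes. These shares are descriptions of sequence and carry no test.

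Floral organ and meristem identity genes were mostly not called. Of 17 tested, CRC and AGL6 fell and none rose, where 0.877% of all genes were called lower. The list's median log2 fold change was 0.05. CRC, a YABBY factor of carpels and nectaries, was at 102, 115, 62.4 and 75.7 CPM in WT and at 48.9, 63.8, 48.3 and 43.5 CPM in rAP2-VENUS. It was lower in 4 of 4 pairs and the ranges touched, with WT replicate 3 below rAP2-VENUS replicate 2. Its log2 fold change was -0.77 (SE 0.10, adjusted p = 0.00821, edgeR quasi-likelihood test). AGL6, a MADS-box gene next to SOC1, fell by 0.56 (SE 0.11, adjusted p = 0.0402, edgeR quasi-likelihood test), from 19.3 ± 4.54 to 13.0 ± 1.62 CPM (SD, n = 4), and stood at 3.91 CPM in ap2-12. Neither call held without the block, and that of CRC was also lost without replicate 2 or 4, and that of AGL6 without replicate 1, 2 or 4. CRC overlaps a second annotated gene. The B-class gene AP3 spanned 98.9 to 148 CPM in WT and 109 to 142 CPM in rAP2-VENUS (adjusted p = 0.931, edgeR quasi-likelihood test). Without replicate 3, AP1, CRC and AGL6 were lower and STK higher, when 4.33% of all tested genes were called lower and 5.47% higher.

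Of 9 tested SPL genes, which miR156 targets, SPL10 fell and none rose, where 0.877% of all genes were called lower. SPL10 was at 91.0 to 117 CPM in WT and 57.5 to 73.6 CPM in rAP2-VENUS, with a change of -0.60 in log2 (SE 0.07, adjusted p = 0.00441, edgeR quasi-likelihood test), a call lost without the block and without replicate 4. Among 17 tested meristem and boundary genes none was called, and without replicate 3 KNAT1 was lower. The organ boundary genes LSH3 and LSH4 are outside that list and are named after their values were seen. LSH4 went from 26.0, 22.0, 11 and 10.3 CPM to 10.7, 12.3, 6.62 and 5.78 CPM, and fell by 0.93 (SE 0.12, adjusted p = 0.00805, edgeR quasi-likelihood test). LSH3 fell by 0.64 (adjusted p = 0.0404, edgeR quasi-likelihood test).

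**Figure D2:**
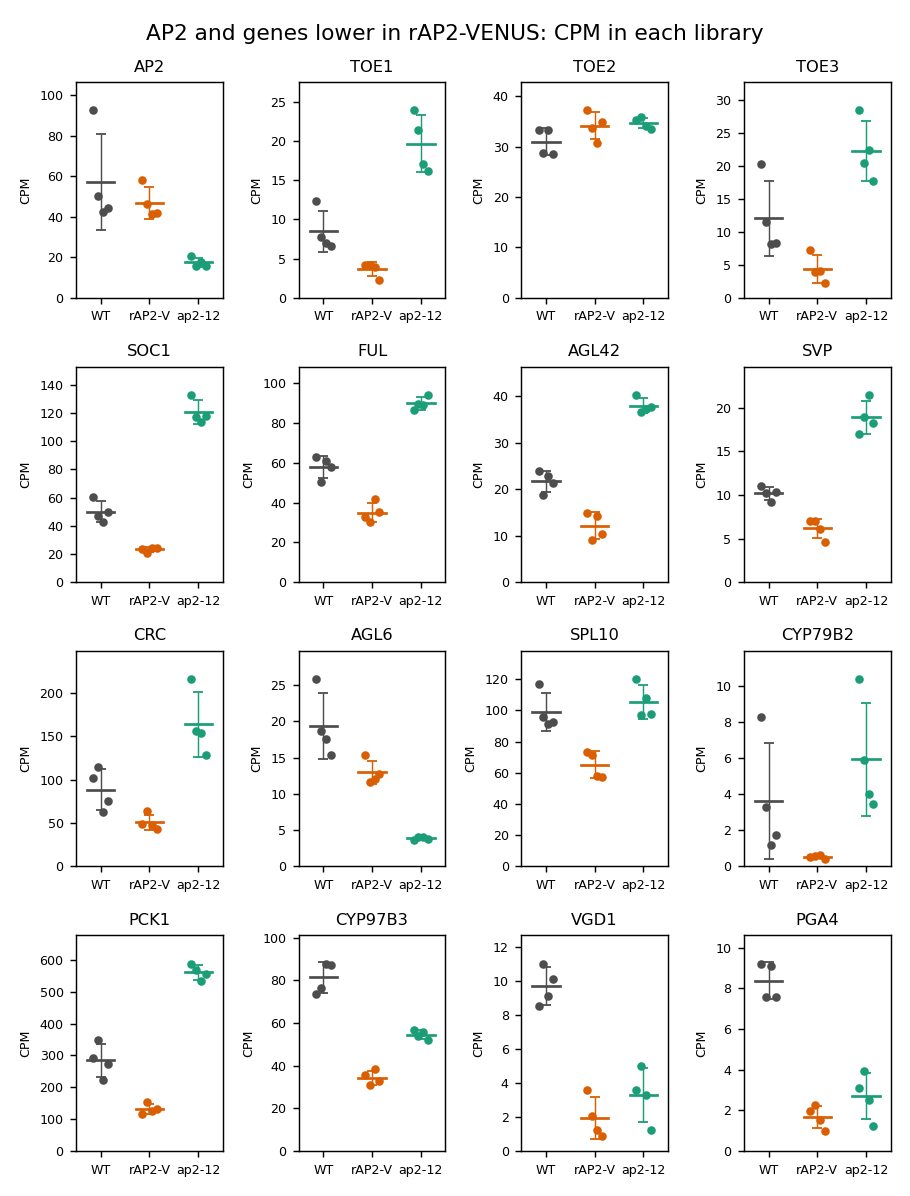
CPM of AP2, TOE2 and 14 genes lower in rAP2-VENUS, in each of the 4 libraries of WT, rAP2-VENUS (rAP2-V) and ap2-12; bars give the mean and error bars the SD. SOC1, FUL, AGL42 and SVP are lowest in rAP2-VENUS and highest in ap2-12, while VGD1 and PGA4 are lower than WT in both lines.

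The gene with the largest rise was AT3G01345, annotated as an uncharacterized protein at chr3:129138-130749 on the plus strand. It was at 0.311, 0.871, 0.732 and 0.213 CPM in WT and at 944, 688, 737 and 591 CPM in rAP2-VENUS. A transcript near the detection limit in WT, at 3 to 13 counts a library, was thus among the abundant ones in every library of the line. Its log2 fold change was 10.33 (SE 0.20, adjusted p = 8.9e-09, edgeR quasi-likelihood test), and in ap2-12 it stood at 0.816 ± 0.248 CPM (SD, n = 4). The 250 bases before its start, chr3:128888-129137, hold neither TTTGTT on either strand nor a CArG box, and are shown as the upstream sequence of the most changed gene.
AT3G01345 upstream: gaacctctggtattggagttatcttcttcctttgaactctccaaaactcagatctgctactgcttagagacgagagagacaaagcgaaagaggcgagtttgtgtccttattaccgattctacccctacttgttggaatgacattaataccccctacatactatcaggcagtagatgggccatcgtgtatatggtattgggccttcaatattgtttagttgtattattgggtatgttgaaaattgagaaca

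At 5 CPM or more, MRD1 had the largest rise after AT3G01345. It was at 0.518 to 0.638 CPM in WT and 33.8 to 46.7 CPM in rAP2-VENUS, with a change of 6.08 in log2 (SE 0.14, adjusted p = 1.68e-08, edgeR quasi-likelihood test), and at 0.451 CPM in ap2-12. MRD1 lies at chr1:19963047-19964712 on the minus strand, and 1446 of its 1666 bases are shared with HEI10 on the opposite strand. HEI10, a RING protein that marks meiotic crossovers, rose from 7.15, 8.31, 7.69 and 9.78 CPM to 21.9, 21.0, 18.5 and 20.9 CPM. Its log2 fold change was 1.32 (SE 0.11, adjusted p = 0.00125, edgeR quasi-likelihood test). Without a stated strand setting, reads of MRD1 and HEI10 cannot be told apart where the genes overlap. HEI10 was the single called gene of 17 tested genes of meiotic recombination, whose median was -0.08, and it lies at chr1:19963267-19966952.

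The list of DNA methylation machinery and silenced reporter genes held MRD1 and the DNA glycosylase gene DML3, a demethylase, as its 2 called members of 20 tested. DML3 was at 1.76, 0.469, 0.878 and 0.921 CPM in WT and 3.45, 1.58, 3.59 and 5.50 CPM in rAP2-VENUS. The groups overlapped, and every pair rose. The log2 fold change was 1.83 (SE 0.31, adjusted p = 0.0204, edgeR quasi-likelihood test), a call lost without replicate 2 or 4 and without the block. With all pairs, no methyltransferase or chromatin remodeller of the list was called: MET1 had a log2 fold change of -0.04, CMT3 of -0.10 and DDM1 of -0.10. Without replicate 3, MRD1 and DML3 were called higher, and the methyltransferase CMT2 (-0.25, adjusted p = 0.0458, edgeR quasi-likelihood test) and the histone demethylase IBM1 (-0.35, adjusted p = 0.00615) were called lower. The silenced reporter SDC stayed at 0.726 to 1.46 CPM in WT and 0.635 to 1.13 CPM in rAP2-VENUS.

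**Figure D3:**
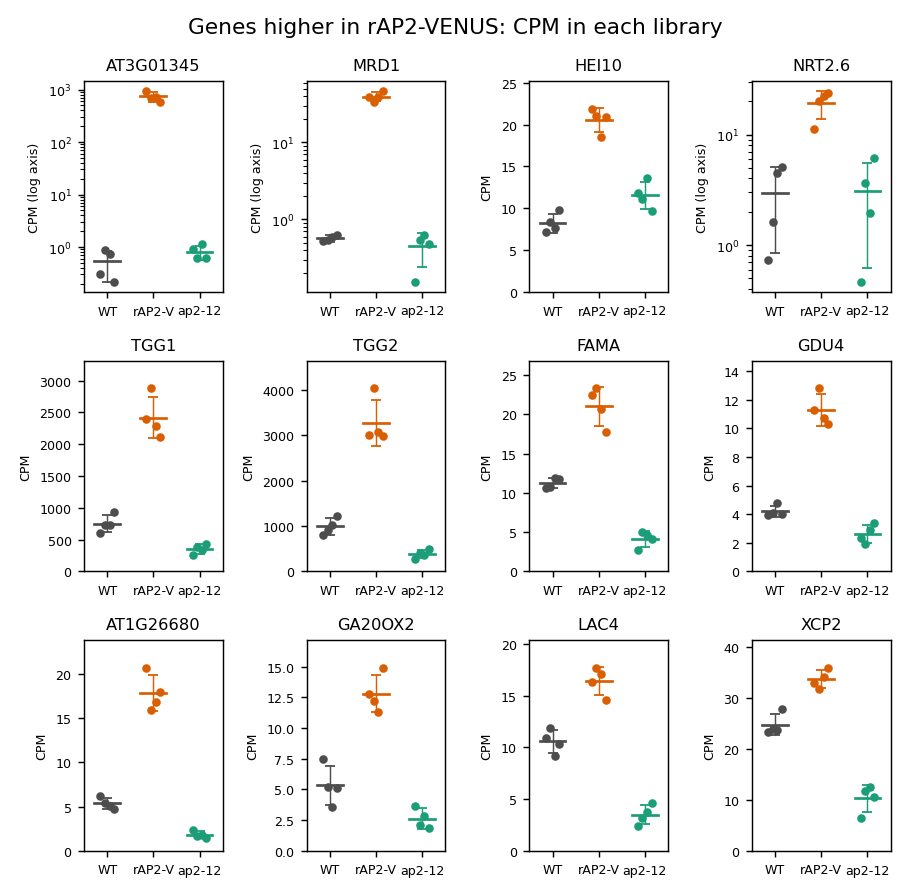
CPM of 12 genes higher in rAP2-VENUS, in each of the 4 libraries of WT, rAP2-VENUS (rAP2-V) and ap2-12; bars give the mean, error bars the SD, and AT3G01345, MRD1 and NRT2.6 have a log axis. TGG1, TGG2, FAMA, GDU4, AT1G26680, GA20OX2, LAC4 and XCP2 have their lowest means in ap2-12 and their highest in rAP2-VENUS.

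Myrosinases, the enzymes that hydrolyse glucosinolates when tissue is damaged, were the most abundant transcripts that rose. TGG2 was at 805, 907, 1020 and 1220 CPM in WT and at 3000, 4030, 3060 and 2990 CPM in rAP2-VENUS. TGG1 was at 606, 732, 728 and 928 CPM in WT and at 2400, 2880, 2280 and 2120 CPM in rAP2-VENUS. Neither gene overlapped between the groups, and replicate 2 was the highest rAP2-VENUS library for both. Log2 fold changes were 1.73 for TGG2 and 1.70 for TGG1 (both SE 0.13 and adjusted p = 0.000489, edgeR quasi-likelihood test). The tandem genes are close relatives, and how the counting shared reads between copies is not stated. FAMA, the bHLH factor of guard cell and myrosin cell fate, was at 10.6 to 11.9 CPM in WT and 17.7 to 23.3 CPM in rAP2-VENUS, a rise of 0.89 in log2 (SE 0.12, adjusted p = 0.00765, edgeR quasi-likelihood test).

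As markers of myrosin and guard cells, 3 of the 5 genes rose, and the summed level of the 5 was 1430 to 2160 CPM in WT and 5130 to 6940 CPM in rAP2-VENUS. Nearly all of that sum is TGG1 and TGG2, so it restates those genes. The guard cell genes MYB60 and KAT1 were not called, with log2 fold changes of -0.02 and -0.36. In whole apices, more or fewer cells of a type and more or less RNA in each cannot be told apart. In ap2-12, TGG2 was at 386, TGG1 at 351 and FAMA at 4.14 CPM, each below WT.

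In the same list, genes of indole glucosinolate synthesis moved the other way. CYP79B2 and CYP79B3, which convert tryptophan to the first intermediate, were low everywhere and lower in the line. CYP79B2 was at 8.29, 3.28, 1.17 and 1.77 CPM in WT and at 0.525, 0.600, 0.662 and 0.423 CPM in rAP2-VENUS. Its log2 fold change was -2.52 (SE 0.44, adjusted p = 0.0234, edgeR quasi-likelihood test). CYP79B3 had 11 to 35 counts a library in WT and 0 to 5 in rAP2-VENUS, and fell by 3.3 (SE 0.64, adjusted p = 0.0350, edgeR quasi-likelihood test). Both are named after their values were seen, both lost their call without replicate 1, 2 or 4 and without the block, and WT replicate 1 was the highest library for both. The nitrile specifier gene NSP1 fell by 0.62 (SE 0.11, adjusted p = 0.0305, edgeR quasi-likelihood test). In all, 3 of the 16 tested genes of the list rose and 3 fell, with a median of -0.27. Over all tested genes, 0.801% were called higher and 0.877% lower. Without replicate 3, 5 rose and 6 fell, when 5.47% of all tested genes were called higher and 4.33% lower.

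NRT2.6 and BT2 were the largest rises after AT3G01345 and MRD1 among genes at 5 CPM or more. NRT2.6, of the high-affinity nitrate transporter family, was at 0.726, 1.61, 4.47 and 5.10 CPM in WT and at 11.3, 20.0, 22.1 and 23.7 CPM in rAP2-VENUS. Replicate 1 was the lowest of both groups, and the groups did not overlap. The log2 fold change was 2.77 (SE 0.24, 6.80-fold, adjusted p = 0.00128, edgeR quasi-likelihood test). BT2, a BTB and TAZ domain protein that responds to nitrate and sugars, varied widely within both genotypes. It was at 0.207, 0.469, 20.5 and 7.37 CPM in WT and 3.75, 15.5, 39.0 and 65.0 CPM in rAP2-VENUS, so that the groups overlapped while each pair rose. Its log2 fold change was 2.47 (SE 0.46, adjusted p = 0.0300, edgeR quasi-likelihood test), and the call was lost without the block and without replicate 1, 2 or 4.

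Nitrate genes were then put together after these values were seen, with members taken for their role and whether or not they moved. Of 14 tested genes of nitrate uptake, assimilation and response, 8 rose and none fell (57.1%, against 1.68% of all genes), and the group's median was 0.61. Because the group was formed on these data, its count is a description. NIA2, a nitrate reductase, was at 35.6, 27.1, 21.8 and 22.7 CPM in WT and 83.4, 68.9, 60.5 and 34.6 CPM in rAP2-VENUS. It rose by 1.17 in log2 (SE 0.13, adjusted p = 0.00277, edgeR quasi-likelihood test). The nitrite reductase gene NIR1 rose by 0.62, the vacuolar nitrate exchanger gene CLC-A by 0.65, the regulator LBD38 by 0.60 and NRT1.8 by 1.60. The second reductase gene NIA1 (0.14) and NRT1.1 (-1.17, adjusted p = 0.149, edgeR quasi-likelihood test) were not called. In ap2-12 NIA2 was at 5.10, NIR1 at 23.5 and CLC-A at 19.4 CPM, below their WT means of 26.8, 46.8 and 42.0 CPM. Not all members were lower there. NRT1.8 was at 4.96 CPM in ap2-12 against 2.09 CPM in WT, and NRT1.1 at 5.12 against 2.94 CPM. NRT2.6 (3.06 against 2.98 CPM) and NIA1 (17.8 against 17.0 CPM) were near WT. The rest of the group had lower means in ap2-12 than in WT.

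GDU4, a membrane protein linked to amino acid export, rose from 3.94, 4.09, 4.76 and 4.04 CPM to 11.3, 12.8, 10.7 and 10.3 CPM. The change was 1.42 (SE 0.14, adjusted p = 0.00223, edgeR quasi-likelihood test), and it remained called in each of the 15 alternative settings. Of 31 tested genes annotated as nodulin MtN21/EamA-like transporters, 6 rose and UMAMIT30 fell, where 0.801% of all genes were called higher and 0.877% lower. Most of the 31 belong to the UMAMIT family, which holds amino acid exporters. AT1G48230, AT2G05755, AT3G02690 and AT1G06890 share the annotation without a UMAMIT name. The median of the 31 was 0.06, and 5 of the 7 called genes had a mean below 5 CPM. UMAMIT12 was at 0.871 to 1.68 CPM in WT and 4.65 to 7.94 CPM in rAP2-VENUS, and rose by 2.18 (SE 0.24, adjusted p = 0.00277, edgeR quasi-likelihood test). UMAMIT14 rose from a mean of 16.4 to 33.1 CPM. The amino acid permease gene AAP2 was at 7.77, 7.64, 28.4 and 22.4 CPM in WT and at 35.0, 37.4, 38.2 and 46.2 CPM in rAP2-VENUS. AAP2 rose by 1.39 (SE 0.26, adjusted p = 0.0324, edgeR quasi-likelihood test) and its relative AAP7 by 0.79 (adjusted p = 0.0213, edgeR quasi-likelihood test). The UMAMIT and permease genes are also named after their values were seen.

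Other genes among the 12 largest rises carry fewer annotations. AT1G26680, a B3-domain transcription factor, was at 4.75 to 6.22 CPM in WT and 15.9 to 20.7 CPM in rAP2-VENUS, with a change of 1.73 in log2 (SE 0.12, adjusted p = 2e-04, edgeR quasi-likelihood test). AT2G33850, an E6-like protein, rose by 1.97 (SE 0.18, adjusted p = 0.00144, edgeR quasi-likelihood test), from 2.91 ± 1.29 to 11.3 ± 2.92 CPM (SD, n = 4). The thioredoxin-fold gene AT5G18600 rose by 1.44, AT3G02910 by 1.46 and AT1G25400 by 1.59. For these 3 genes the WT and rAP2-VENUS libraries overlapped, and their calls did not hold without the block or without replicate 2 or 4 (for AT5G18600 and AT3G02910 also without replicate 1). AT3G02910 overlaps a long noncoding RNA gene on the other strand.

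A few genes near 0 in WT were called higher in rAP2-VENUS and had higher means still in ap2-12, where they varied widely between libraries and were not tested. LBD2, a LOB-domain factor, had 0 counts in the WT libraries and was at 1.88, 1.43, 1.61 and 3.24 CPM in rAP2-VENUS. Against a floor of 3 counts over the WT group, 0.0573 CPM, it was at least 35.6-fold higher, and it was at 1.38, 16.3, 7.76 and 21.9 CPM in ap2-12. AT3G23770, a glycosyl hydrolase of family 17, was at 0, 0.067, 0 and 1.56 CPM in WT and at 10.3, 8.03, 2.27 and 15.9 CPM in rAP2-VENUS, and at 7.29, 54.1, 29.8 and 82.4 CPM in ap2-12. AT1G76470 was at 0 to 1.39 CPM in WT and 1.65 to 11.3 CPM in rAP2-VENUS, and at 0.46, 39.3, 32.5 and 53.8 CPM in ap2-12. Replicate 1 was the lowest ap2-12 library for all 3 genes, and for AT1G76470 it was below WT replicate 3, which was at 1.39 CPM. AT2G33850 was at 16.1 to 41.5 CPM in ap2-12. LBD2, AT3G23770 and AT1G76470 fall below the 5 CPM limit for naming and are given after their values were seen.

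Hormone genes showed single changes within lists that otherwise were not called. GA20OX2, an enzyme of the late steps of gibberellin synthesis, was at 7.46, 5.23, 3.59 and 5.10 CPM in WT and 12.8, 12.2, 11.3 and 14.9 CPM in rAP2-VENUS. It rose by 1.29 (SE 0.16, adjusted p = 0.00592, edgeR quasi-likelihood test) with no overlap, and was the single call among 15 tested gibberellin genes, a call lost without replicate 4 (adjusted p = 0.0508). GA20OX1 had a log2 fold change of -1.1 without passing the test (adjusted p = 0.0933, edgeR quasi-likelihood test), and without replicate 3 it and GA3OX1 were called lower and GID1C higher. GH3.5, which conjugates auxin to amino acids, rose by 0.88 (SE 0.13, adjusted p = 0.0142, edgeR quasi-likelihood test), a call lost without the block and without replicate 1, 2 or 4. ABCB15, an ABC transporter counted in the auxin list, was at 18.9, 18.2, 16.9 and 16.9 CPM in WT and at 5.55, 8.48, 6.43 and 6.28 CPM in rAP2-VENUS. It fell by 1.41 (SE 0.13, adjusted p = 0.00135, edgeR quasi-likelihood test), the groups lay far apart, and ap2-12 stood near WT at 15.9 CPM. Of 22 tested auxin genes these were the 2 calls. No cytokinin gene of 18, no abscisic acid gene of 12 and no salicylic acid or defence gene of 7 was called by edgeR's quasi-likelihood test. With replicate 3 left out, the calls in these lists were 2, 2 and 1, where 9.8% of all tested genes were called. Over all genes, 2387 had an unadjusted p under 0.05, and DESeq2 called 348.

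Of the xylem and secondary wall genes, LAC4, LAC17 and XCP2 rose. LAC4 and LAC17, laccases that polymerise lignin, were at 9.22 to 11.9 and 8.11 to 11.1 CPM in WT and at 14.6 to 17.7 and 13.5 to 17.0 CPM in rAP2-VENUS. XCP2, a peptidase of xylem vessels, went from 23.4, 23.9, 23.7 and 27.8 CPM to 33.0, 31.7, 34.0 and 35.9 CPM. Log2 fold changes were 0.64 (SE 0.11) for LAC4, 0.65 (SE 0.12) for LAC17 and 0.45 (SE 0.08) for XCP2, with adjusted p of 0.0219, 0.0269 and 0.0248 (edgeR quasi-likelihood test). Of 13 tested xylem genes 3 rose, none fell and 10 were not called, IRX9 (-0.17), VND7 (-0.27) and MYB46 (-0.03) with negative values. Over all tested genes, 0.801% were called higher and 0.877% lower. The list's median was 0.34, and 4 rose without replicate 3, when 5.47% of all tested genes were called higher. None of the 3 calls held without the block or without replicate 1, 2 or 4. The summed level of the 5 xylem markers was 54.4 to 66.1 CPM in WT and 76.9 to 79.5 CPM in rAP2-VENUS. XCP2 is the largest part of that sum and the only marker of the 5 that was called. XCP1, CESA4, CESA7 and CESA8 were not called. LAC17 overlaps 2 noncoding genes on the opposite strand.

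Among 22 tested photosynthesis genes, the carbonic anhydrase gene CA2 was the single call with all pairs, and the list's median was 0.09. Without replicate 3, 6 were called higher (LHCB1.1, PRK, CA1, LHCB4.1, CA2 and RBCS2B) and none lower. Over all tested genes those shares were 5.47% and 4.33%. CA2 was at 10.6, 11.7, 23.3 and 18.5 CPM in WT and 18.8, 24.8, 30.7 and 39.9 CPM in rAP2-VENUS, with overlap between the groups, a change of 0.85 in log2 (SE 0.13) and an adjusted p of 0.0135 (edgeR quasi-likelihood test). The call was lost without the block and without replicate 1, 2 or 4. In ap2-12 it was at 0.243 CPM. The mesophyll markers summed to 9780 to 15000 CPM in WT and 10100 to 12600 CPM in rAP2-VENUS, and none of the 5 was called.

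The largest falls at 5 CPM or more were in cell wall genes known from pollen. VGD1, a pectin methylesterase of pollen tubes, was at 8.50, 11, 9.08 and 10.1 CPM in WT and at 3.60, 2.03, 1.23 and 0.846 CPM in rAP2-VENUS. PGA4, a polygalacturonase, was at 9.22, 7.57, 9.08 and 7.58 CPM in WT and at 1.95, 2.25, 1.51 and 0.987 CPM in rAP2-VENUS. The groups were well apart for both. VGD1 fell by 2.39 in log2 (SE 0.31, adjusted p = 0.00760) and PGA4 by 2.33 (SE 0.22, adjusted p = 0.00144), by edgeR's quasi-likelihood test. The call of VGD1 was lost without replicate 2, and that of PGA4 held in all 15 alternative settings. sks13, of the SKU5-similar family, fell by 2.24 (SE 0.35, adjusted p = 0.0159), the glyoxal oxidase-related gene AT5G19580 by 1.45 (SE 0.21, adjusted p = 0.0116) and AT3G28750 by 1.3 (SE 0.23, adjusted p = 0.0234), all by edgeR's quasi-likelihood test. Without replicate 2 the call of sks13 was lost, without replicate 4 that of AT5G19580, and without the block or without replicate 1, 2 or 4 that of AT3G28750.

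A wider group took the 113 tested genes whose product name holds pectin, pectate, polygalacturonase or VANGUARD. Such names also take in inhibitors, PGIP1 and PGIP2 among them, so the group is not one of enzymes alone. In it 16 genes were called lower and 2 higher, where 0.877% of all genes were called lower and 0.801% higher. The grouping was made after the values were seen. Its median over all 113 was -0.06, and 11 of its 18 called genes had a mean below 5 CPM. VGDH1 fell by 2.61 and VGDH2 by 2.43. Means of VGD1, PGA4 and sks13 in ap2-12 were 3.28, 2.69 and 3.32 CPM, also below WT. VGD1 is the single pollen marker of the list that the annotation held, and its range stands above.

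Genes of the tapetum, the anther layer that feeds pollen, were not called with all pairs. Their list of 16 had a median of 0.48, and 13 rose and none fell without replicate 3, when 5.47% of all genes were called higher and 4.33% lower. ATA20 was at 9.64, 9.38, 29.0 and 14.7 CPM in WT and 35.9, 28.6, 22.7 and 105 CPM in rAP2-VENUS. QRT3 was at 1.55, 1.21, 10.9 and 4.18 CPM in WT and 17.9, 6.38, 5.77 and 17.9 CPM in rAP2-VENUS. WT replicate 3 was the highest WT library for both, and above its rAP2-VENUS partner. With all pairs, the adjusted p of ATA20 was 0.122 and that of QRT3 was 0.247 (edgeR quasi-likelihood test).

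The clock list also gained calls when replicate 3 was left out. Of 13 tested clock genes none was called with all pairs, and without replicate 3 7 rose and 3 fell. The list's median difference was 0.31, 0.66, 0.17 and 0.53 in pairs 1 to 4, with 8 of 13 genes above 0 in pair 3. These figures hide changes of sign, since the list mixes genes that moved in opposite directions. LHY, CCA1, PRR9 and RVE8 were below 0 in pairs 1, 2 and 4 and above it in pair 3 (0.59, 0.35, 0.34 and 0.17). PRR7, PRR5, TOC1, ELF3 and LUX did the reverse, at -0.22, -0.03, -0.05, -0.45 and -0.45 in pair 3. GI, FKF1, ELF4 and BOA were above 0 in every pair. LHY, a clock gene that peaks at dawn, was at 223, 99.5, 22.5 and 22.7 CPM in WT and at 93.8, 42.2, 34.2 and 12.7 CPM in rAP2-VENUS. FKF1, which peaks late in the day, was at 0.726, 1.14, 17.5 and 16.2 CPM in WT and at 3.98, 16.1, 20.5 and 68.3 CPM in rAP2-VENUS. In pairs 1, 2 and 4 LHY was thus lower and FKF1 higher in rAP2-VENUS, while in pair 3 LHY was higher and FKF1 differed little. Their adjusted p with all pairs was 0.233 and 0.0772, by edgeR's quasi-likelihood test. The part of clock phase, and so of the hour of harvest, in the other differences was not tested.

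Sugar starvation genes also varied between replicates. DIN10, a sugar-repressed gene, was at 71.5, 323, 1720 and 1110 CPM in WT and at 321, 852, 1180 and 1710 CPM in rAP2-VENUS. Of 14 tested members of the sugar starvation and bud dormancy list, 10 rose and 1 fell without replicate 3, against 1 fall with all pairs. In pair 3 all 14 were below their WT partner, with a median difference of -0.42, where the medians of pairs 1, 2 and 4 were 0.74, 0.60 and 0.44. The single call in both was the bud dormancy gene HB21, which fell by 1.01 (SE 0.21, adjusted p = 0.0459, edgeR quasi-likelihood test), from 8.71, 7.91, 20.8 and 15.7 CPM to 3.00, 5.85, 6.62 and 10.4 CPM, and was not called without the block or without replicate 1, 2 or 4. By contrast, the flowering list had pair medians of -0.54, -0.48, -0.54 and -0.58.

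**Figure D4:**
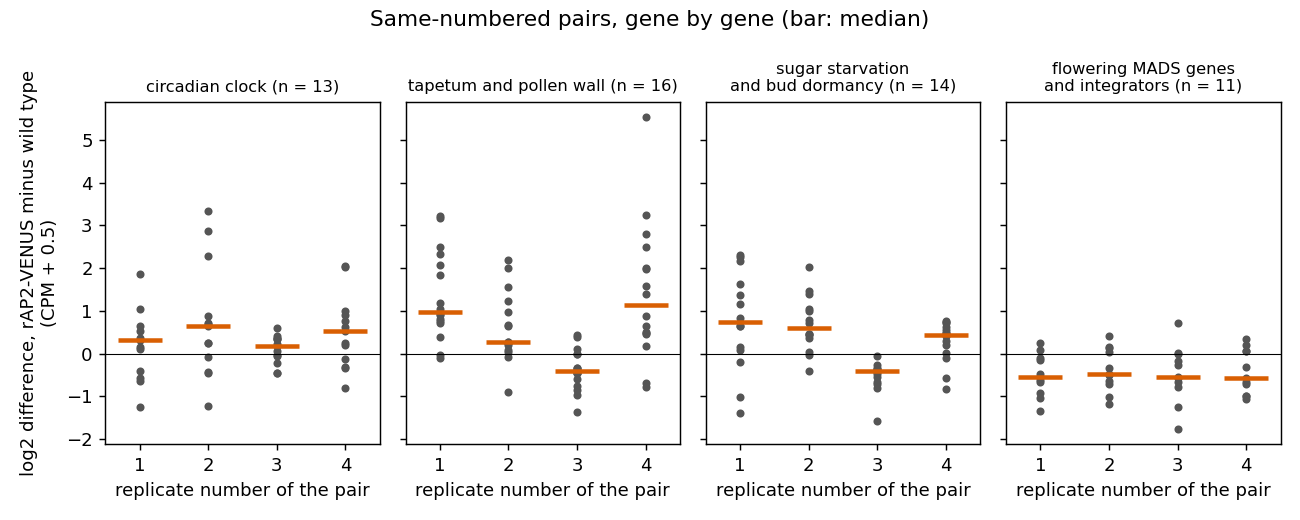
Each point is a gene's log2 difference between the rAP2-VENUS and WT libraries of a replicate number, on CPM plus 0.5, for 4 gene lists, and the orange bar is the list's median. Tapetum and sugar starvation genes are above 0 for the most part in pairs 1, 2 and 4 and below it in pair 3, while the flowering list has a median near -0.54 in each pair.

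Metabolic genes among the 12 largest falls were PCK1, CYP97B3 and GLL22. PCK1, the gluconeogenic enzyme phosphoenolpyruvate carboxykinase, was at 293, 349, 222 and 274 CPM in WT and at 116, 154, 126 and 132 CPM in rAP2-VENUS. It fell by 1.1 (SE 0.09, adjusted p = 0.000791, edgeR quasi-likelihood test) and was at 562 ± 23.2 CPM in ap2-12 (SD, n = 4). CYP97B3, of a P450 family that holds carotenoid hydroxylases, was at 73.8, 76.5, 87.9 and 87.4 CPM in WT and at 35.4, 30.8, 38.3 and 32.7 CPM in rAP2-VENUS. Both genes were clear of overlap and kept their call in all 15 alternative settings. CYP97B3 fell by 1.25 (SE 0.08, adjusted p = 0.000143, edgeR quasi-likelihood test), with 54.5 CPM in ap2-12. GLL22, a GDSL lipase, fell by 1.38 (SE 0.22, adjusted p = 0.0163, edgeR quasi-likelihood test), and its neighbours AT1G54010 and AT1G54020 were also called lower. GLL22 lost its call without the block and without replicate 1 or 4.

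In the cuticular wax and cutin list, CYP96A15, the midchain alkane hydroxylase, fell from 113, 91.7, 75.7 and 118 CPM to 68.2, 52.7, 43.0 and 32.7 CPM. The log2 fold change was -1.04 (SE 0.16, adjusted p = 0.0162, edgeR quasi-likelihood test), a call lost without the block and without replicate 2. It was the single call of 18 tested genes, whose median was -0.10, and 5 fell without replicate 3. Cell cycle and core histone genes (21 tested, median -0.10) and heat, wounding and touch genes (13 tested, median 0.12) had no call. Leaving out replicate 3 gave 3 lower in the first, and 1 higher and 2 lower in the second. In that setting 5.47% of all tested genes were called higher and 4.33% lower.

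**Figure D5:**
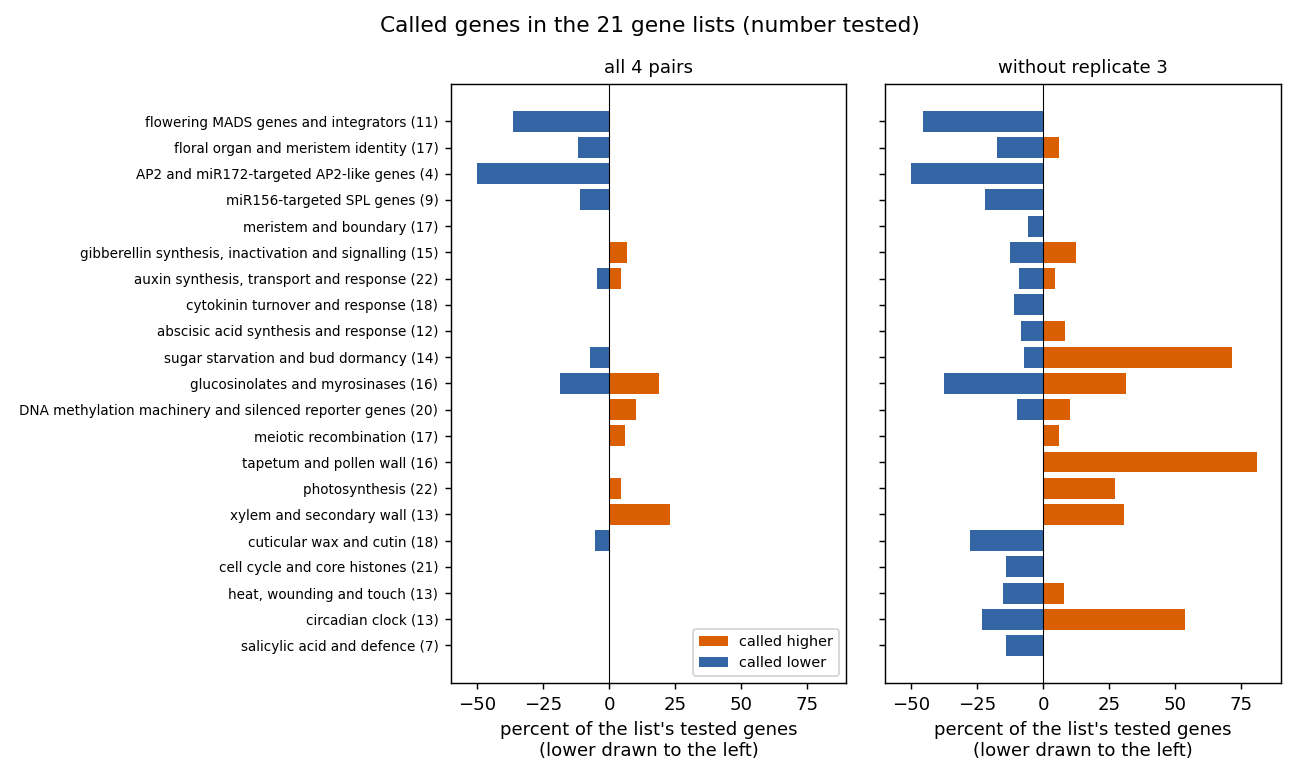
Percent of the tested genes of each of 21 lists that were called higher (orange, to the right) or lower (blue, to the left) in rAP2-VENUS, with all 4 pairs on the left and without replicate 3 on the right. The flowering, AP2-like, glucosinolate and xylem lists are among the many with calls in both panels. The 13 of 16 tapetum and 10 of 14 sugar starvation genes called higher appear in the right panel.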

How the data were processed

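Values in the deposited table are raw counts of reads by gene, on TAIR10 per the file headers, and the submitters' processing notes name TopHat2, SAMtools and HTSeq; versions, settings and the strand rule are not given in the sources used here. Its 210 organelle rows hold 0 counts. Of the 27416 rows, 18359 passed edgeR's filterByExpr on the 8 libraries compared. Library totals were 9680133 to 15152704 counts, with TMM factors over all 12 libraries of 0.942 to 1.04, from which CPM were computed. edgeR 4.0.16 in R 4.3.3 (glmQLFit, glmQLFTest) was fitted with genotype and replicate number, p-values were Benjamini-Hochberg adjusted over all genes tested, and genes were called under 0.05. The SE of a log2 fold change is its size over the square root of F. No 2 libraries of a group agreed within sampling noise (chi-square per degree of freedom 6.53 to 45.8).

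Replicate numbers come from the labels. Deviations from the group means of same-numbered libraries correlated at 0.71, 0.28, 0.30 and 0.57 for replicates 1 to 4, all over 0.1. Some libraries of unlike number also passed that limit, so it does not single out the same-numbered pairs, and the pairing rests on the labels. rAP2-VENUS replicate 4 correlated at 0.71 with WT replicate 3, rAP2-VENUS replicate 1 at 0.54 with WT replicate 2, and rAP2-VENUS replicate 2 at 0.27 with WT replicate 1.

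The genes named are AP2, the 12 called genes with the largest change in each direction with a mean of at least 5 CPM and 4 pairs moving alike, and up to 3 called members of each of 21 gene lists (357 members, 315 tested) by adjusted p. The members and lists were chosen with earlier results of these data known, and exceptions are marked. Alternatives were no block, all 12 libraries, other scalings and filters, DESeq2 1.42.0, limma-voom (limma 3.58.1), each replicate number left out, and replicates 1 and 2 or 3 and 4 alone. Symbols, coordinates and sequences are from RefSeq TAIR10.1, where 26719 rows were found and 697 were not. The table holds no coordinates of its own.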

Additional observations from a re-analysis of the deposited data

Results flagged for a closer look

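In 4 of 88 groups of 4 libraries checked for the genes named, a single library stood away from the other 3, which had like values. Chance alone marks about 1 group in 20. TGG2 was at 4030 CPM in rAP2-VENUS replicate 2, with the other rAP2-VENUS libraries at 2990 to 3060 CPM. TOE1 was at 2.26 CPM in rAP2-VENUS replicate 4, against 3.97 to 4.20 CPM. AT3G28750 was at 1.69 CPM in the same library, against 3.3 to 3.6 CPM. XCP2 was at 27.8 CPM in WT replicate 4, against 23.4 to 23.9 CPM.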

How the results depend on the processing

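Against 308 called genes and 147 of at least 2-fold in the paired fit, leaving out a replicate number gave 63 to 1800 and 50 to 329. Replicates 1 and 2 alone gave 2115 and 377, and replicates 3 and 4 alone gave 88 and 71. With no replicate block the counts were 84 and 64, and with 12 libraries and no block 140 and 86. The other 7 settings (12 libraries with the block, other scalings and filters, DESeq2, limma-voom) stayed within 1.5 times, from 294 to 440 called. The share of calls that were higher was 47.7% in the paired fit, 37.1% with 12 libraries and no block and 63.5% without replicate 4. No named gene turned its direction. Of the 44 genes followed, AP2 included, 23 lost their call without the block, 17 with 12 libraries and no block, 3 with 12 libraries and the block, 1 under limma-voom, 17 with replicates 3 and 4 alone, and 16, 21 and 23 without replicate 1, 2 or 4. None lost it without replicate 3, and 307 of the 308 genes were called there. AP2 was called with replicates 1 and 2 alone (adjusted p = 0.00133), and with no other alternative. Causes were not tested. Low levels limit many of the largest changes, since 94 called genes had a mean below 5 CPM.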
